A study of Mus musculus with 16 samples.

Results

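Interferon-stimulated genes are the transcripts that cells switch on when interferon reaches them, and 33 of them were followed here in 16 bulk RNA-seq libraries of sorted mouse pancreatic cancer cells. The members were a fixed list of gene symbols matched to the Entrez identifiers of the count files. All 33 were present among the 24467 genes of each file, and all 33 passed the filter on low counts. They were placed in 7 groups by role: 4 sensors of nucleic acid, 4 transcription factors, 16 antiviral effectors, 2 regulators of the ISG15 and ubiquitin systems, 2 guanylate-binding proteins, 3 subunits of the immunoproteasome and 2 secreted proteins.

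The cells came from orthotopic tumours, that is, tumours grown in the pancreas of host mice, of 1 line named KPC 7TCF-eGFP/Porcn-DMA PDAC, where PDAC stands for pancreatic ductal adenocarcinoma. Every group carried both constructs. In the 7TCF-eGFP reporter, green fluorescent protein is expressed from TCF binding sites, as a readout of the transcriptional response to WNT. The labels do not give the make-up of Porcn-DMA, the promoter behind mScarlet, or the strain, age and immune status of the host mice. Tumours were dissociated and cells were sorted by flow cytometry into cells negative for both reporters (DN), positive for GFP alone (GFP), positive for mScarlet alone (mScarlet) and positive for both (DP). Each group held 4 libraries from 4 mice, and the titles number the libraries of each group from 1 to 4. Whether libraries of 1 number came from 1 mouse is not stated. The series describes WNT-responsive and WNT-secreting cells. GFP is taken as the gate of the first, and no label ties mScarlet to the second in words.

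Interferons are secreted proteins. Type I interferons bind the receptor IFNAR, whose kinases JAK1 and TYK2 then activate transcription factors, STAT2 and IRF9 among them, that bind the interferon-stimulated response element, ISRE, in the promoters of their targets. Type II interferon, interferon gamma, acts through promoter elements called gamma-activated sites, and it is known for the induction of IRF1, the guanylate-binding proteins and the immunoproteasome. Tumour cells can also hold part of this programme with little interferon present.

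Libraries held 80647185 to 104273669 counts in total, with 15476 to 17805 genes detected. Levels are given as CPM, counts relative to the TMM-scaled library size, and 3 counts, used as the floor, were worth 0.0288 to 0.0372 CPM. The labelled cell type was met by keratins, with Krt8 between 4958 and 12740 CPM and Krt19 between 5768 and 16846 CPM over all libraries. Epcam, another epithelial marker, was near 0, with at most 0.426, 0.375 and 0.474 CPM in any DN, mScarlet and DP library, and 29.0 CPM in GFP library 4. Markers of other cell types stood high in a pair of libraries. The sum over 15 macrophage markers was 25142 CPM in GFP library 1 and 974 to 6604 CPM in the 15 others. GFP library 4 had the highest sums of 10 fibroblast markers (9153 CPM) and of 10 acinar markers (25082 CPM), against 17.8 to 1728 and 45.7 to 2370 CPM elsewhere. In bulk samples, fewer cells of a type and less RNA per cell cannot be told apart.

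Promoter windows, from 250 bases before to 50 bases after the annotated start, were read from RefSeq sequence of assembly GRCm38.p6 for 26 of the 33 members. The ISRE was searched as GAAANNGAAA, where N is any base, on both strands. It was found in 12 of 26 members (46.2%) and in 1079 of 27025 genes of the table (3.99%). By role, it was present in 6 of 12 antiviral effectors, both guanylate-binding proteins, 2 of 2 sensors, 1 of 4 transcription factors, 1 of 2 secreted proteins and 0 of 3 immunoproteasome genes. The gamma-activated site core, TTCNNNGAA, which reads the same on both strands, was found in 7 of 26 members (26.9%) and in 9.55% of all genes. A match is a description of these letters and not a measured binding site. The stretches below belong to antiviral effectors that carried more than 1 match, and 3 of the 4 (Isg15, Ifit3 and Bst2) recur in the results on library number. Each runs 5′ to 3′ on the strand of the gene, and capitals mark the motif, written as its reverse complement where it lies on the opposite strand.
Isg15 (chr4:156200850-156200921, minus strand): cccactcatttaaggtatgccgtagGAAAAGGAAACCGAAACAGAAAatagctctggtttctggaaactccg
Bst2 (chr8:71537562-71537627, minus strand): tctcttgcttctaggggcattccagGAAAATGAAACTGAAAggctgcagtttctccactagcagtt
Ifit3 (chr19:34583348-34583441, plus strand): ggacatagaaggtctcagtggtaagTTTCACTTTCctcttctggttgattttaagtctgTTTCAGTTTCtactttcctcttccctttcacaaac
Ifit1 (chr19:34640760-34640838, plus strand): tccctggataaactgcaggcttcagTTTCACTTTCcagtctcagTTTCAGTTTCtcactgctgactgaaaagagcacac

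In Isg15 the 3 overlapping matches began 78 to 66 bases before the start, and in Bst2 the 2 overlapping matches began 130 and 124 bases before it. Ifit3 had 2 separate matches at 156 and 122 bases, and Ifit1 had 2 at 104 and 85 bases. Oas1a, an oligoadenylate synthetase that activates RNase L on double-stranded RNA, also held 2, at 20 and 14 bases before its start. The windows of Irf7, Irf1, Irf9, Oasl2, Lgals3bp and the 3 immunoproteasome genes held no match, which says only that these letters are not in these windows.

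The members differed widely in level. Per kb of exon, Lgals3bp was highest at a mean of 407 CPM per kb over the 16 libraries, followed by Psmb10 at 223, Irf1 at 217, Bst2 at 122 and Psmb8 at 109. Lgals3bp encodes a secreted galectin-3-binding glycoprotein, and Psmb10 and Psmb8 encode catalytic subunits that replace the constitutive ones in the immunoproteasome. The lowest were Mx2 at 0.19, Ifi44 at 0.21, Cmpk2 at 0.25 and Mx1 at 0.27 CPM per kb. Mx1 and Mx2 belong to a family of dynamin-like GTPases that block viruses, and their proteins were not measured here. On the scale of CPM without length, 10 members had a mean of at least 100 CPM, 11 a mean under 10 CPM and 1, Mx2, a mean under 1 CPM. Within the antiviral effectors the levels ran from near the floor to over 100 CPM. Isg15, a ubiquitin-like modifier, had 11.3 to 31.2 CPM, while Rsad2 (viperin), which makes a chain-terminating nucleotide, had 0.104 to 7.19 CPM. Cmpk2, the neighbour of Rsad2 on chromosome 12, had 0 counts in 3 libraries and 6.19 CPM in GFP library 1, the library with the highest macrophage marker sum, and 4.12 CPM in GFP library 4. The part of other cell types in these Cmpk2 values was not tested.

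**Figure D1:**
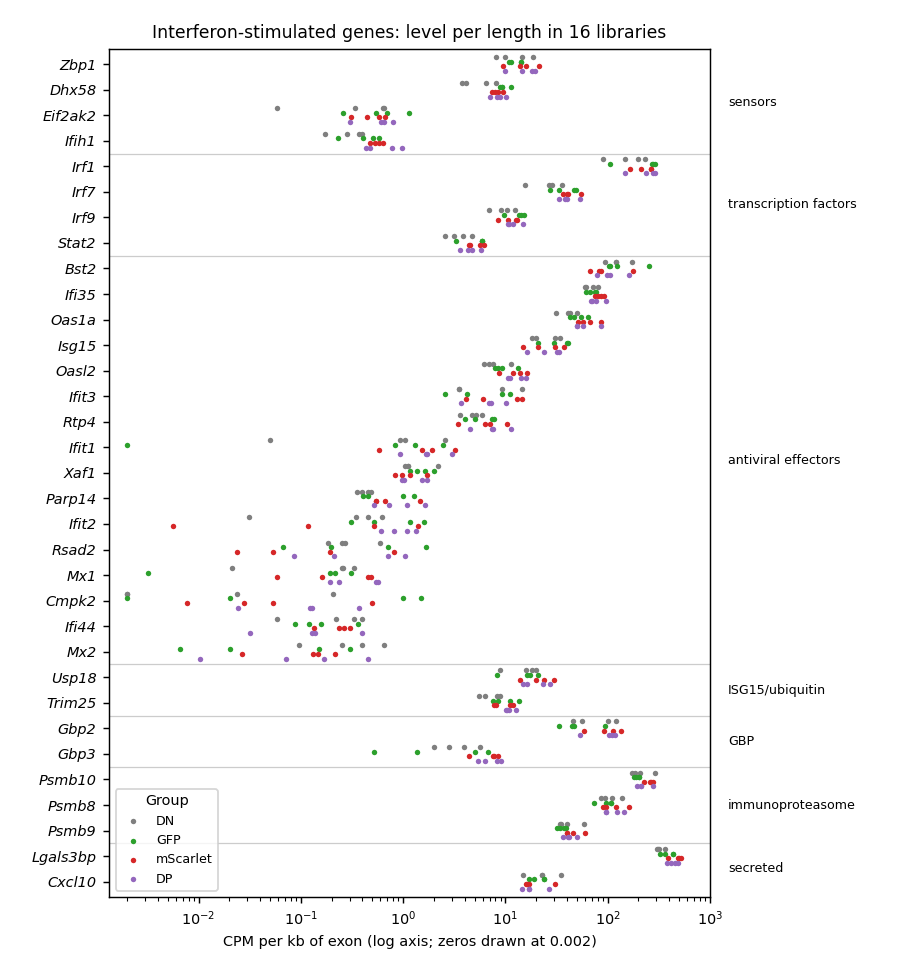
Level of the 33 members per kb of exon (horizontal log axis, CPM per kb) in the 16 libraries, with 1 point per library coloured by sorted group and members ordered by role. Lgals3bp, Irf1 and the immunoproteasome genes sit near the top of the scale, and Mx1, Mx2, Ifi44 and Cmpk2 at the bottom, with zeros drawn at 0.002.

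The ligands of the pathway were nearly absent from these libraries. Of 12 interferon genes, Ifnb1 had the most, 248 counts summed across libraries, with none in 6 libraries and at most 0.615 CPM. Ifnz had 62 counts, Ifne 28, Ifna1 6, Ifnl3 4, and Ifng and Ifnl2 had 1 each. Ifna2, Ifna4, Ifna5, Ifna11 and Ifnk had 0 counts. The receptors were detected in every group. Ifnar1 and Ifnar2, the chains for type I interferon, had group means of 53.2 to 59.3 CPM and 37.96 to 55.9 CPM. Ifngr1 and Ifngr2, the chains for interferon gamma, had group means of 187 to 290.5 CPM and 132 to 194 CPM. Ifnlr1, the specific chain for type III interferon, had 1.69 to 4.47 CPM. Among sensors outside the list, Cgas, the cytosolic DNA sensor, had a mean of 0.0209 CPM in DN and 0.375 CPM in DP, while Sting1, which acts directly after it, had 152 and 187 CPM. Trex1, a DNA exonuclease that limits this arm, was listed at 0 in all libraries. Overlaps with other genes were looked up for the members only, so for Trex1 reads lost in counting cannot be told from absence.

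The first comparison asked whether the members differed with the mScarlet gate, taking mScarlet and DP (8 libraries) against DN and GFP (8 libraries). The test throughout is the quasi-likelihood test of edgeR, fitted to 15963 genes, and a gene was called when its p, adjusted by the method of Benjamini and Hochberg over all of them, was under 0.05. P-values measure the spread between these libraries. In all, 8.73% of tested genes were called (1393) and 1 of the 33 members (3.03%), Lgals3bp. The members leaned upward without passing the test, with 25 positive and 8 negative differences and a median log2 fold change of 0.23, against -0.02 over all genes. At an unadjusted p under 0.05 there were 8 of 33 members and 3825 of 15963 genes, which are about the same share. All 4 sensors, 4 transcription factors and 3 immunoproteasome genes had positive differences, and so did both guanylate-binding proteins and both regulators. The 16 antiviral effectors were split, with 9 positive and 7 negative. Over the leave-one-out and processing alternatives the members' median stayed between 0.16 and 0.31, with 23 to 26 positive differences. The count of calls depended on the library number. With that number as a block, a term beside the group, this gate called 8 of 33 members (24.2%) and 14.4% of genes. Of these members 7 were higher, Oasl2, Oas1a and Irf7 among them, and 1 was lower. Same-numbered libraries correlated by less than 0.1 in some pairs of groups, so this fit is given as an alternative only. That limit was a set rule, and a library was matched best by its own number in 23 of 24 checks. The share of members called was below that of all genes without the block and above it with the block.

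Lgals3bp, on chromosome 11 (118392751 to 118402092 in GRCm38), had 884, 912, 1033 and 875 CPM in DN libraries 1 to 4. It had 1229, 1046, 1255 and 919 CPM in GFP, 1408, 1499, 1388 and 1102 CPM in mScarlet, and 1186, 1389, 1306 and 1097 CPM in DP. All 8 mScarlet-positive libraries lay above all 4 DN libraries, whereas GFP libraries 1 and 3 reached into the range of mScarlet and DP. The mean was 1297 ± 151 CPM in mScarlet-positive and 1019 ± 152 CPM in mScarlet-negative libraries (SD, n = 8). Lgals3bp rose with mScarlet by 0.35 on the log2 scale (SE 0.094, edgeR adjusted p = 0.0287). The call was lost when any of 9 single libraries was left out (DN 1, 2 or 4, mScarlet 1, 2 or 3, DP 2 or 3, or GFP 4, adjusted p = 0.0527 to 0.0784, log2 fold change 0.31 to 0.33) and without both GFP libraries 1 and 4 (log2 fold change 0.32, edgeR adjusted p = 0.0884). In mScarlet vs DN alone its log2 fold change was 0.54 (SE 0.13, edgeR adjusted p = 0.0596).

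The fibroblast markers differed between the same groups. All 10 had negative differences for mScarlet and 5 of the 10 were called lower, with summed levels of 17.8 to 89.1 CPM in mScarlet, 27.0 to 274 in DP, 137 to 1433 in DN and 607 to 9153 in GFP. Of the 15 macrophage markers, 14 had negative differences and none was called (edgeR, 1 at an unadjusted p under 0.05). Their part in the members' differences was not tested.

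Among the members short of the threshold in the fit without the block were the oligoadenylate synthetase genes. Oas1a had 59.1, 94.6, 76.9 and 81.4 CPM in DN, 89.0, 122, 103 and 80.6 in GFP, 127, 163, 108 and 97.7 in mScarlet, and 93.7, 164, 109 and 94.0 in DP (libraries 1 to 4). The mScarlet libraries lay above the DN libraries, and DP overlapped DN by less than 1 CPM. Its log2 fold change for the mScarlet gate was 0.44 (SE 0.15, edgeR adjusted p = 0.0777). Oasl2, an OAS-like protein, had 39.6, 73.2, 48.8 and 44.1 CPM in DN, 51.1, 84.3, 58.6 and 53.7 in GFP, 89.0, 104.5, 55.3 and 75.3 in mScarlet, and 91.3, 102, 67.2 and 70.8 in DP. Here the groups overlapped, because library 2 was high in DN and GFP and library 3 low in mScarlet. The difference for the mScarlet gate was 0.54 (log2, SE 0.17, edgeR adjusted p = 0.0558). Near copies such as Oas1g may share reads with Oas1a, so Oas1a is uncertain as a single gene.

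The sensor Ifih1 (MDA5), which recognises long double-stranded RNA, was low throughout. It had 1.39, 2.99, 3.26 and 2.29 CPM in DN, 4.78, 4.15, 3.28 and 1.89 in GFP, 4.73, 3.83, 5.13 and 4.35 in mScarlet, and 6.39, 3.87, 7.94 and 3.58 in DP. Both mScarlet-positive groups lay above DN without overlap, and GFP spanned the gap. The log2 fold change for the mScarlet gate was 0.74 (SE 0.27, edgeR adjusted p = 0.1). Irf7, the factor that drives type I interferon genes once phosphorylated, had 58.6, 136, 102 and 107 CPM in DN, 102, 184, 128 and 176 in GFP, 138, 207, 154 and 150.0 in mScarlet, and 127, 203, 145 and 153 in DP. DN held the lowest value, in library 1. Its library 2 lay above DP library 1 and came close to mScarlet library 1, each the lowest of its group. GFP libraries 2 and 4 lay within the ranges of mScarlet and DP. The difference for the mScarlet gate was 0.39 (log2, SE 0.17, edgeR adjusted p = 0.179).

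The guanylate-binding proteins, GTPases that attack the membranes of intracellular pathogens, were low in single GFP libraries. Gbp3 had 9.15, 13.0, 6.47 and 18.6 CPM in DN, 16.6, 22.2, 4.42 and 1.71 in GFP, 27.4, 25, 14.4 and 25 in mScarlet, and 29.8, 26.8, 17.5 and 20.8 in DP. Values inside the mScarlet-positive range of 14.4 to 29.8 CPM were found in GFP libraries 1 and 2 and in DN library 4. GFP library 4 held the lowest value of all. The log2 fold change of Gbp3 for the mScarlet gate was 1.02 (SE 0.4, edgeR adjusted p = 0.126). Gbp2 had 114, 252, 143 and 306 CPM in DN, 114, 236, 119 and 84.1 in GFP, 230.0, 282, 149 and 337 in mScarlet, and 258, 301, 135 and 275 in DP. All 4 groups overlapped for Gbp2, and its differences of 0.81 in DP vs GFP (log2, SE 0.37, edgeR adjusted p = 0.302) and -0.85 in GFP vs mScarlet (SE 0.37, edgeR adjusted p = 0.223) were not called.

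Of the immunoproteasome genes, which also serve antigen presentation on MHC class I, Psmb10 had 294, 353, 316 and 497 CPM in DN, 311, 345, 323 and 346 in GFP, 457, 475, 390 and 447 in mScarlet, and 360, 476, 332 and 362 in DP. The mScarlet libraries lay above the GFP libraries without overlap, and DN library 4 was the highest of all. The difference was 0.24 for the mScarlet gate (log2, SE 0.11, edgeR adjusted p = 0.196) and -0.42 for GFP vs mScarlet (SE 0.16, edgeR adjusted p = 0.16). Psmb8 and Psmb9 ranged from 250.3 to 546 and from 116 to 221 CPM with no call. Psmb9 shares 212 exon bases (5.79% of its own) with Tap1 on the opposite strand. The use of strand in counting is not stated, so reads in these shared bases cannot be told apart. Cxcl10, a chemokine for T cells that belongs to the inflammatory chemokines as well, had group means of 42.5 to 54.1 CPM, highest in DN, with no call.

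**Figure D2:**
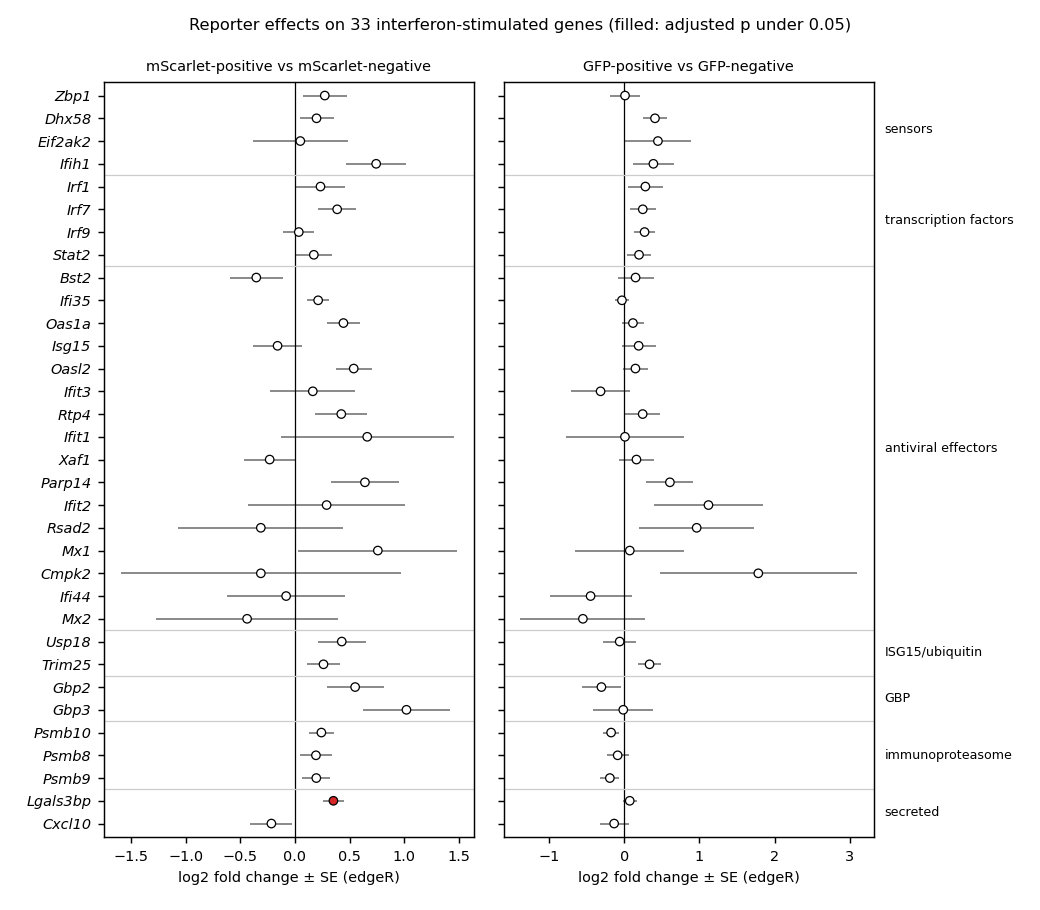
Log2 fold change ± SE (edgeR) of the 33 members for the mScarlet gate (left, 8 against 8 libraries) and the GFP gate (right, 8 against 8), ordered by role, with called members filled. Lgals3bp at 0.35 is the single filled point, and wide bars belong to members of low count such as Cmpk2 and Ifit1.

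For the GFP gate, GFP and DP (8 libraries) against DN and mScarlet (8 libraries), edgeR called 0.0% of all genes and 0 of 33 members. At an unadjusted p under 0.05 there were 2 members and 1551 genes, DESeq2 called 0 members and 323 genes, and limma voom called 0 members and 1 gene. The members' median log2 fold change was 0.15 against 0.01 over all genes, with 22 positive differences. All 15 macrophage markers were positive in the same comparison, with a median log2 fold change of 2.49, 13 at an unadjusted p under 0.05 and none called by edgeR. So were 9 of the 10 fibroblast markers, with a median of 1.88, 6 at an unadjusted p under 0.05 and none called. Their part in the members' differences was not tested. The interaction, which asks whether the difference with GFP depended on mScarlet, was called for 0.0% of genes and 0 members (edgeR, 2 members and 525 genes at an unadjusted p under 0.05, DESeq2 0 members, limma voom 0 members).

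The 2 members at an unadjusted p under 0.05 for the GFP gate were Dhx58 and Trim25. Dhx58 (LGP2), a helicase that assists MDA5, had 12.3, 26.7, 21.4 and 13.5 CPM in DN, 30.2, 36.9, 28.8 and 30.4 in GFP, 27.9, 30.8, 24.4 and 25.99 in mScarlet, and 26.9, 33.3, 29.3 and 23.2 in DP. The GFP libraries lay above the DN libraries without overlap, and DN libraries 1 and 4 were the lowest of the 16. The log2 fold change was 0.41 for the GFP gate (SE 0.16, edgeR adjusted p = 0.396) and 0.77 in GFP vs DN (SE 0.22, edgeR adjusted p = 0.37). Trim25, a ubiquitin ligase linked to RIG-I signalling, had 47.2, 31.8, 36.2 and 51.4 CPM in DN, 64.5, 43.2, 48.5 and 79.1 in GFP, 63.5, 44.3, 47.1 and 68.2 in mScarlet, and 61.8, 58.3, 59.9 and 72.4 in DP. DP lay above DN without overlap, and libraries 1 and 4 were the high ones in DN, GFP and mScarlet. Its difference for the GFP gate was 0.34 (log2, SE 0.15, edgeR adjusted p = 0.478). Stat2, a transcription factor that acts with IRF9 after type I interferon, had 18.5, 22.8, 27.8 and 15.2 CPM in DN, 34.8, 35.3, 19.3 and 35.3 in GFP, 33.3, 36.3, 26.7 and 26.3 in mScarlet, and 27.8, 34.3, 21.1 and 25.8 in DP. GFP library 3 stood far under the others of its group. The interaction for Stat2 was -0.73 (log2, SE 0.33, edgeR adjusted p = 1).

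The 6 comparisons of single groups share libraries with each other and are given side by side. mScarlet vs DN called 1.18% of genes and 0 of 33 members (edgeR, 7 members and 2273 genes at an unadjusted p under 0.05, DESeq2 and limma voom 1 member each), with a median of 0.42 over the members and 0.00 over all genes. Over the alternatives the members' median ran from 0.20 to 0.50. It was lowest without DN library 1, where edgeR called 17 genes, against 188 with all libraries. DP vs GFP called 0.564% of genes and 0 members (1 member and 2540 genes unadjusted, 0 members by DESeq2 and limma voom). GFP vs DN called 0.0% of genes and 0 members (5 members and 1551 genes unadjusted, 1 member by DESeq2, 0 by limma voom), with a members' median of 0.26. DP vs mScarlet called 0.0% of genes and 0 members (0 members and 460 genes unadjusted, 0 members by DESeq2 and limma voom), and GFP vs mScarlet 1.53% of genes and 0 members (3 members and 3060 genes unadjusted, 0 members by DESeq2 and limma voom). These shares over all genes were too low for 0 of 33 members to mark a shortfall, and so was the share in DP vs DN. In DP vs DN, edgeR called 2.32% of genes and 0 members, with 8 members and 2520 genes at an unadjusted p under 0.05, 1 member called by DESeq2 and 2 by limma voom. There 27 of 33 differences were positive and the median was 0.43, against 0.02 over all genes. The members' median ran over the alternatives from 0.29 to 0.47 in DP vs DN and from 0.15 to 0.40 in GFP vs DN.

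Parp14, a mono-ADP-ribosyltransferase, had the largest difference in DP vs DN among the members with full values. It had 3.26, 4.18, 4.47 and 3.68 CPM in DN, 9.36, 11.8, 3.77 and 4.19 in GFP, 13.5, 6.16, 5.02 and 5.11 in mScarlet, and 10.2, 6.76, 15.3 and 4.86 in DP. DN was uniformly low. Library 1 was high in each of the other groups, and so were GFP library 2 and DP library 3. Its log2 fold change in DP vs DN was 1.25 (SE 0.45, edgeR adjusted p = 0.173).

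Libraries of 1 number deviated together in DP and DN (the correlation of their deviations from the group means was 0.12 to 0.27 for all 4 numbers). With the library number as a block, DP vs DN called 6.37% of genes and 6 of 33 members (18.2%), all higher in DP. They were Trim25 (log2 fold change 0.63, SE 0.11, edgeR adjusted p = 0.00683), Irf7 (0.67, SE 0.13, edgeR adjusted p = 0.00909), Oasl2 (0.7, SE 0.15, edgeR adjusted p = 0.0153), Lgals3bp (0.42, SE 0.097, edgeR adjusted p = 0.0224), Oas1a (0.53, SE 0.13, edgeR adjusted p = 0.0285) and Dhx58 (0.64, SE 0.18, edgeR adjusted p = 0.049). Each was higher in DP than in DN in 4 of 4 numbers, a pattern that a fit with this block favours. It is therefore no separate support, and members not called, such as Irf1, Usp18, Gbp3, Parp14 and Ifih1, showed it too. The sizes were close to those without the block, and the standard errors were smaller.

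**Figure D3:**
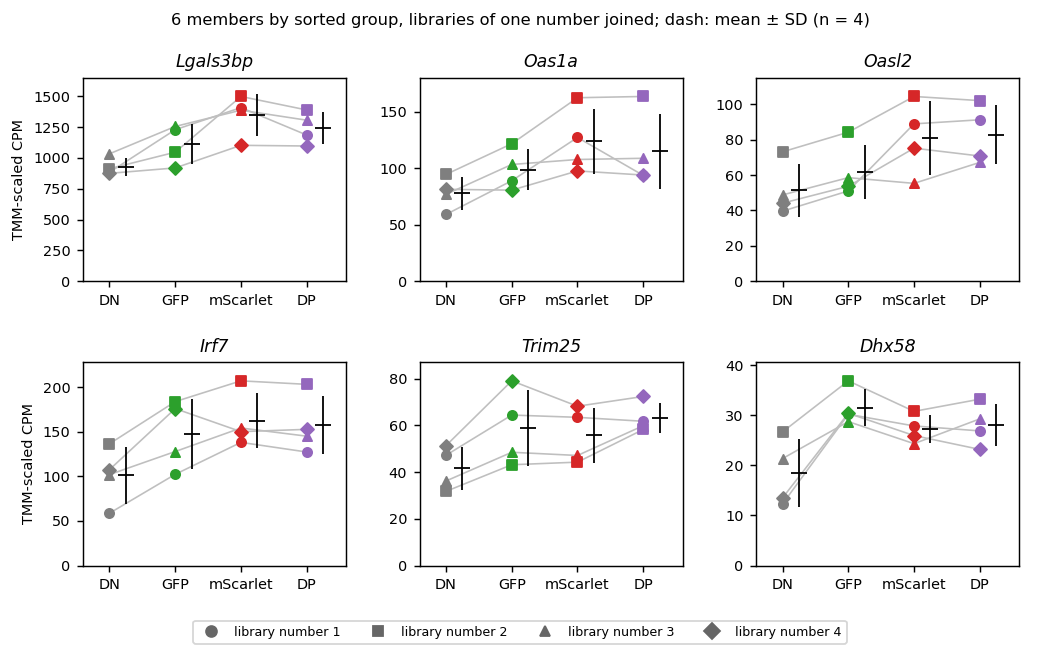
Level in TMM-scaled CPM (vertical axis, from 0) of the 6 members called in DP vs DN with the library number as a block, by sorted group, with libraries of 1 number joined by grey lines and black dashes for the mean ± SD (n = 4). Library 2 is the highest of its group for Oas1a, Oasl2, Irf7 and Dhx58 in all 4 groups, and library 4 for Trim25.

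The lines in the plot of these 6 members by group run roughly parallel, so the libraries of 1 number were also compared across the 4 groups. This test, of the library number as a term beside the group, was added after the values were seen. What the number marks is not stated. It called 8.49% of genes and 10 of 33 members (30.3%). These were Bst2 (edgeR adjusted p = 0.00459), Ifit3 (0.00595), Irf1 (0.00734), Irf7 (0.0128), Usp18 (0.0132), Trim25 (0.0144), Zbp1 (0.0207), Isg15 (0.0247), Oas1a (0.0299) and Oasl2 (0.0357). With 1 library left out, 6 to 14 members were called, the fewest without mScarlet library 4 and the most without GFP library 4. Bst2, Ifit3, Irf1, Irf7 and Usp18 stayed called in all 24 alternatives run, while Oas1a and Oasl2 were called in 15 of 24.

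The called members did not share 1 order of numbers. By their mean over the 4 groups, 5 were highest in number 4 (Bst2, Ifit3, Trim25, Zbp1 and Isg15) and 5 in number 2 (Irf1, Irf7, Usp18, Oas1a and Oasl2). Bst2 (tetherin), which holds budding virions at the cell surface, averaged 86.7, 94.2, 87.5 and 172 CPM over numbers 1 to 4. Its number 4 libraries had 155, 229.7, 159 and 146 CPM in DN, GFP, mScarlet and DP, and each was the highest of its group. Isg15 averaged 19.5, 23.3, 13.7 and 27.7 CPM, and number 4 was again highest in all 4 groups. Ifit3, a partner of the viral RNA binder IFIT1, averaged 9.16, 18.2, 6.06 and 20.6 CPM, and number 3 was lowest in all 4 groups, while in DP number 2 was the highest. Zbp1, a sensor of Z-form nucleic acid that can trigger necroptosis, averaged 42.3, 56.8, 35.5 and 64.1 CPM, and was also highest in number 2 in DP. Both were thus high in numbers 2 and 4.

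Among the members with the highest mean in number 2, Irf7 averaged 107, 183, 132 and 146 CPM, with number 2 highest and number 1 lowest in all 4 groups. Oas1a averaged 92.3, 136, 99.3 and 88.4 CPM, and number 4, the highest for Bst2, was its lowest by mean. Irf1, a factor induced by interferon gamma, averaged 504 CPM in number 1 and 1019.9, 1004 and 916 CPM in numbers 2 to 4, and number 1 was lowest in all 4 groups, whereas its highest number differed between groups. Usp18, the protease that removes ISG15 and damps IFNAR signalling, averaged 32.0, 65.5, 51.1 and 57.9 CPM, with number 1 lowest in all 4 groups. Trim25 differed from these, with number 2 lowest in all 4 groups (mean 44.4 CPM, against 67.8 in number 4). An ISRE match was present in 4 of the 8 called members with a promoter window (Bst2, Ifit3, Isg15 and Oas1a) and in 8 of the 18 others. Over all 33 members, the mean was highest in number 2 for 14 and in number 4 for 12, and lowest in number 3 for 12 and in number 1 for 11.

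**Figure D4:**
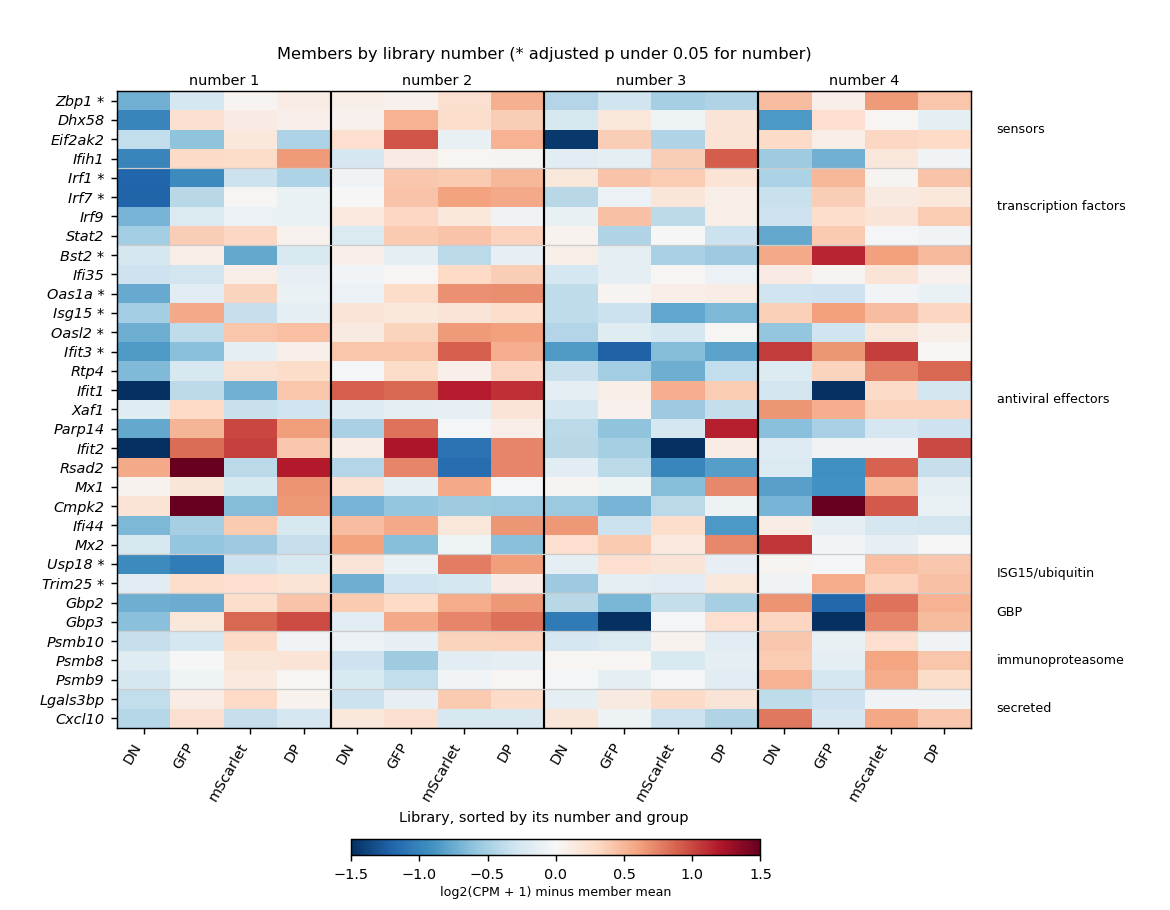
Each cell shows log2(CPM + 1) of a member in 1 library minus that member's mean over the 16 libraries (colour, clipped at 1.5 in either direction), with libraries ordered by number and then group, and an asterisk for members called for the number. Bst2, Isg15 and Trim25 are high across number 4, Irf7, Oas1a and Oasl2 across number 2, and Irf1 and Usp18 low in number 1.

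Marker sums differed by number too. The sum of the erythroid markers was 204 to 4528 CPM in number 1, 59.9 to 112 CPM in number 3, 0.432 to 43.5 CPM in number 2 and 0.0564 to 4.69 CPM in number 4. The sum of 7 neutrophil markers was 157 to 323 CPM in the libraries of number 1 and 10.6 to 149 CPM in the others. The sum of 5 B cell markers was 11.6 to 27.5 CPM in number 1 and 1.64 to 7.01 CPM in the others. Bst2 itself is used as a marker of plasmacytoid dendritic cells. Siglech, the defining marker of those cells, had at most 3.09 CPM, in a GFP library, and at most 0.0111, 0.854 and 0.509 CPM in DN, mScarlet and DP. The other markers of that list, Siglech included and Bst2 left out, summed to 309 CPM in GFP library 4, where Bst2 was highest, and to at most 35.9 CPM elsewhere. Klk1 alone made up 296 CPM of that sum, so the sum says little of the list as a whole. GFP library 4 also had the highest acinar marker sum, 25082 CPM. The part of other cell types in the differences by number was not tested.

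DN library 1 had the lowest value of the 16 libraries for 11 of the 33 members, among them Irf1, Irf7, Ifih1 and Dhx58. The members highest in a library were 6 in mScarlet library 2, 5 in DN library 4 and at most 4 in any other.

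Other genes of the pathway gave few calls. Of 48 listed genes (ligands, receptors, receptor signalling, nucleic acid sensing and brakes), 35 were tested, and 2 were called higher and 0 lower for the mScarlet gate, against the background of 8.73% given above. Tlr3, the endosomal sensor of double-stranded RNA, averaged 5.87 ± 2.04 CPM for DN, 8.47 ± 3.73 for GFP, 13.3 ± 5.79 for mScarlet and 15.3 ± 5.98 for DP (SD, n = 4). It rose with mScarlet by 1.02 (log2, SE 0.29, edgeR adjusted p = 0.038). Ifngr1 averaged 201 ± 43.6 CPM for DN, 187 ± 57.2 for GFP, 265 ± 31.8 for mScarlet and 290.5 ± 41.0 for DP, and rose by 0.52 (log2, SE 0.15, edgeR adjusted p = 0.0425). In the other 8 comparisons edgeR called 0 of the 35, with 0 to 9 at an unadjusted p under 0.05.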

How the data were processed

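RNA was sequenced in 16 libraries, 4 per sorted group, with a low-input protocol that amplifies full-length cDNA by PCR, per the labels' protocols. The authors deposited raw counts of reads for each Entrez gene, without normalization. STAR, DESeq2 1.24.0 and GRCm38 (mm10) are listed in the submitters' processing notes with no role. Counter, annotation and strand setting: not given in the sources used here. Reads in the shared bases of overlapping genes (Irf7 and Phrf1, Irf9 and Rnf31, Psmb9 and Tap1, Cxcl10 and Art3) and reads of near copies (Oas1a and Oas1g, Ifit3 and Ifit3b, Gbp2 and Gbp3) cannot be told apart with certainty. Identifiers were matched to RefSeq symbols (24437 of 24467). Identifiers without a symbol stayed in the library totals.

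The test was edgeR 4.0.16 (R 4.3.3, quasi-likelihood, robust, expression filter by group, TMM), fitted to all 16 libraries with group as the only term, over 9 comparisons, with Benjamini-Hochberg adjustment over 15963 genes and a threshold of 0.05. Robust estimation is not edgeR's default. Both settings were run, and the robust one was kept after the counts were seen, because it gave the counts of an earlier analysis of these data (188 genes in mScarlet vs DN, against 159 by default, and 371 in DP vs DN, against 340 by default). Alternatives were other scalings and filters, DESeq2 1.42.0, limma 3.58.1 voom with quality weights, a block for the library number, fits of 8 libraries alone, each library left out, and GFP libraries 1 and 4 left out. Exon lengths came from GENCODE M21. The scripts were tested on simulated data.

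The members and lists were chosen with earlier results of these data known. Full values are given for members called in a comparison and, up to 12, for those of lowest unadjusted p. Members named for the library number were chosen after their values were seen. Same-numbered libraries deviated together (every correlation over 0.1) in 3 of 6 pairs of groups, GFP and DN, DP and DN, and DP and mScarlet. Only there is the block used beside a result, apart from the count of calls given for the mScarlet gate. All replicate pairs differed by more than sampling noise (lowest chi-square per degree of freedom 91.8). Floors cover counting error only, since the labels mention no molecular identifiers.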

Additional observations from a re-analysis of the deposited data

Results flagged for a closer look

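Of 72 sets of 4 libraries screened over 18 members, 4 held a library far from the others by Dixon's test, where chance gives about 1 in 20. Parp14 had 13.5 CPM in mScarlet library 1 against 6.16 CPM in the nearest library of that group. Stat2 had 19.3 CPM in GFP library 3 against 34.8 CPM in the nearest. Irf1 had 420.2 CPM in GFP library 1, the library with the highest macrophage marker sum, against 1074 CPM in the nearest, and the part of those cells in this value was not tested. Bst2 had 229.7 CPM in GFP library 4, the library with the highest fibroblast and acinar marker sums, against 111 CPM in the nearest, and their part was not tested either. In all 4 groups, library number 1 was the lowest for Irf1 and library number 4 the highest for Bst2.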

How the results depend on the processing

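No member printed with its fold change and test changed sign under the alternatives run. The members' median for DP vs mScarlet, 0.04, did so without mScarlet 3 (-0.10), mScarlet 1 (-0.05), DP 2 (-0.03) or DP 4 (-0.03), with 12 to 14 positive members against 20. For the mScarlet gate, edgeR called 1 member, while a filter of at least 1 CPM in 4 libraries, DESeq2 and limma voom called 2 each, and leaving out GFP libraries 1 and 4 gave 0. With 1 library left out the count was 0 to 3, the highest without GFP library 2. For mScarlet vs DN the count of 0 became 1 with that filter, DESeq2, limma voom or without GFP libraries 1 and 4, and 0 to 1 with 1 library left out, 1 without GFP 1, GFP 4 or mScarlet 4. GFP vs DN gave 1 with DESeq2, and DP vs DN gave 1 with DESeq2 and 2 with limma voom. The other comparisons gave 0 with any library left out. Without robust estimation the member counts were the same in all 9 comparisons, and Lgals3bp stayed called for the mScarlet gate (edgeR adjusted p = 0.0294). The library number called 10 members (8.49% of genes), 16 with DESeq2 (20.3%), 15 with limma voom (15.7%), and 6 to 14 with 1 library left out (2.89% to 8.22%). With the replicate block, the mScarlet gate called 8 members (24.2%) against 14.4% of genes, namely Lgals3bp, Oasl2, Oas1a, Irf7, Usp18, Trim25 and Ifi35 higher and Bst2 lower (edgeR adjusted p = 0.00401 to 0.0497). It called 5 in mScarlet vs DN (Lgals3bp, Irf7, Oas1a, Oasl2 and Trim25) and 6 in DP vs DN, and no call changed in the other 6 comparisons. In mScarlet and DN, mScarlet and GFP, and DP and GFP the lowest same-number correlations were 0.076, 0.058 and 0.071, under the 0.1 set for using the block beside a result. Yet a library was matched best by its own number in 23 of 24 checks over all pairs of groups. Over all genes the counts moved more. By edgeR, DESeq2, limma voom and edgeR with the replicate block, 1393, 2338, 1455 and 2297 genes were called for the mScarlet gate, 188, 808, 765 and 865 for mScarlet vs DN, 371, 1020, 924 and 1017 for DP vs DN, 90, 1005, 31 and 813 for DP vs GFP, and 245, 1523, 113 and 1190 for GFP vs mScarlet. The GFP gate gave 0, 323, 1 and 80, and GFP vs DN 0, 246, 2 and 11. DESeq2 alone of these called genes for the interaction (39) and DP vs mScarlet (50). Scaling by library totals changed mScarlet vs DN from 77 higher and 111 lower to 58 and 134. The other scalings kept each split within 10 percentage points. Without GFP libraries 1 and 4 the mScarlet gate called 681 genes and DP vs GFP 1. Among single members, 1021 alternative values kept their side of the threshold, 35 lost it and 31 gained it. With 4 libraries per group, low members such as Mx2, Cmpk2 and Ifi44 had standard errors too wide to show changes of the size seen for Lgals3bp. What lies behind the differences between settings was not tested.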
